A study of Mus musculus with 8 samples.

Results

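Mitochondrial ribosomal proteins are the protein parts of the ribosome that works inside mitochondria. They were taken here as the genes whose symbol begins with Mrpl or Mrps followed by a digit, leaving out 4 symbols marked as pseudogenes. This gave 77 of the 41444 genes listed, 48 named for the large subunit and 29 for the small subunit. The samples were macrophages grown with the growth factor M-CSF from the bone marrow of wild-type (WT) C57BL/6 mice. The vehicle control group and the group given 6 nM SLIT2, a secreted ligand of ROBO receptors, for 16 hours held 4 libraries each. The sources used here do not give the age or sex of the mice, or say whether replicates came from separate animals or cultures. The p-values therefore weigh each difference only against the spread of these libraries, and a part of that spread may be technical.

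The mitochondrial ribosome translates the few messenger RNAs of the mitochondrial genome, which encode core subunits of the respiratory chain and the ATP synthase. Its ribosomal RNAs are transcribed inside the organelle, while its proteins are encoded in the nucleus, made in the cytosol and imported. Many of them descend from bacterial ribosomal proteins and others were added in the mitochondrial lineage. Symbols do not always tell the subunit, since Mrps18a and Mrps30 sit in the large subunit of the mammalian structure and Mrps36 is a part of the 2-oxoglutarate dehydrogenase complex.

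Expression is given as regularized-log (rlog) values, a log2 scale on which a difference of 1 is a doubling. No read counts are given, so the depth per library is unknown. Replicates 1 and 2 stood apart from replicates 3 and 4 in both groups, and these pairs are called replicate sets here. Xist, the X-inactivation RNA, ranged from 7.47 to 7.65 in replicates 1 and 2 and from 12.69 to 12.79 in replicates 3 and 4. Ddx3y, on the Y chromosome, ranged from 10.75 to 10.83 and from 5.9 to 6.45. The sets thus differed in these sex-linked genes, and any other shift between the sets cannot be told apart from this difference. The macrophage markers Adgre1, Csf1r, Cd68, Itgam, Mertk, Lyz2, Fcgr1 and Cd14 were all above the floor for testing, with a summed log2 level of 19.03 to 19.54 in vehicle and 18.96 to 19.51 in SLIT2 libraries. That sum is mostly Lyz2, which stood at 18.41 to 19.05. Of the 8 markers Fcgr1, an Fc receptor, rose by 1.165 with SLIT2 (limma adjusted p = 0.0016) and Cd68, a lysosomal protein, fell by 0.245 (0.0183). Itgam, an integrin, had a difference of 0.735 that passed only with the replicate number as a block (limma adjusted p = 0.169, and 0.000629 with the block). Cd14 had a difference of -0.1575 that also passed only with the block (limma adjusted p = 0.243, and 0.0482 with the block). With the block 2 of the 8 markers were thus higher and 2 lower.

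Of the 77 members, 76 reached a mean of 4, the floor for testing, and Mrpl42 did not. SLIT2 raised 3 large-subunit members, Mrpl52, Mrpl28 and Mrpl45, by limma with Benjamini-Hochberg adjustment over all 11851 genes tested and a threshold of 0.05. No large-subunit member passed as lower, and no small-subunit member passed in either direction. Only Mrpl45 passed without vehicle replicate 1 or 2 or SLIT2 replicate 3 or 4, a count of 1. At an unadjusted limma p under 0.05 there were 5 large-subunit and 3 small-subunit members higher and 0 lower. These 8 of 76 members (10.5%) stand beside 13.3% of all genes tested that were higher and 13% that were lower at that unadjusted threshold. With adjustment, 13.3% of all genes tested passed, 6.76% as higher and 6.58% as lower. The 3 of 76 members (3.95%) that passed were a smaller share than in the whole table. All 3 were among the 47 large-subunit members tested (6.38%), a share near the 6.76% of all genes that passed as higher. With the replicate number as a block, 23.4% of large-subunit and 6.9% of small-subunit members passed as higher, against 16.6% of all genes. As lower, 2.13% and 0% passed with the block, against 16.4% of all genes. Under the block the share of higher members stood above that of all genes in the large subunit and below it in the small. For lower members both shares were below that of all genes. These differences were not tested. With duplicates averaged and a block on the set, only Mrpl52 passed as higher, against 3.15% of all genes. In bulk RNA, fewer cells of a type and less RNA per cell cannot be told apart.

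The promoters of these 3 genes are shown because these members passed the test, and because the motif matches in them differ from gene to gene. Each window runs from 150 bases before to 30 after the annotated start, on the plus strand of GRCm38.p6, from RefSeq. They lie at chr11:97315566-97315745 for Mrpl45, chr17:26123353-26123532 for Mrpl28 and chr14:54426759-54426938 for Mrpl52. Capitals mark matches to the NRF1 motif in Mrpl45, to CCAAT in either orientation in Mrpl28 and to the ETS motif in Mrpl52.
Mrpl45: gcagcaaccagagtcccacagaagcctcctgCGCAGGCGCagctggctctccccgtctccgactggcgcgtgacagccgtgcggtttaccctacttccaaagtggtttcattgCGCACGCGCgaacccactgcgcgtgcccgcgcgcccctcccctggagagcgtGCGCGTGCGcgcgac
Mrpl28: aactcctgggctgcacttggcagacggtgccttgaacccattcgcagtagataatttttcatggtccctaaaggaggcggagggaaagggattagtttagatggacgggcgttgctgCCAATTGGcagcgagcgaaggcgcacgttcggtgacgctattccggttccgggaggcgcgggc
Mrpl52: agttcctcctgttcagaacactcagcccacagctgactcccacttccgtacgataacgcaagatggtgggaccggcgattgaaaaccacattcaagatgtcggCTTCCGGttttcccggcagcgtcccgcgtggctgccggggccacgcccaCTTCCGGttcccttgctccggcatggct

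Mrpl52 encodes a large-subunit protein with no bacterial counterpart (ENSMUSG00000010406, chromosome 14, 54426909 to 54429756 in GRCm38). Its rlog values were 8.71, 8.72, 9.08 and 9.19 in vehicle replicates 1 to 4 and 9.26, 9.35, 9.73 and 9.76 in SLIT2 replicates 1 to 4. Every SLIT2 library lay above every vehicle library, and within each group replicates 3 and 4 lay above replicates 1 and 2. The means were 8.925 ± 0.247 and 9.525 ± 0.257 (SD, n = 4), a 1.52-fold rise. The log2 difference was 0.60 (SE 0.16, limma adjusted p = 0.0406), and the sets gave 0.59 (replicates 1 and 2) and 0.61 (replicates 3 and 4). With the replicate number as a block the adjusted p was 0.000208. In the fit without it, leaving out vehicle replicate 1, 2 or 3 or SLIT2 replicate 2, 3 or 4 ended the call, with adjusted p between 0.0621 and 0.103.

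Mrpl28 encodes a large-subunit protein with a bacterial homologue (ENSMUSG00000024181, chromosome 17, 26123500 to 26126613). It stood at 10.13, 10.06, 10.19 and 10.17 in the vehicle libraries and at 10.29, 10.33, 10.47 and 10.5 in the SLIT2 libraries. The groups did not overlap. The log2 difference was 0.26 (SE 0.062, limma adjusted p = 0.0283, and 0.00373 with the replicate block), a 1.2-fold rise. Leaving out vehicle replicate 1, 2 or 4 or SLIT2 replicate 3 or 4 ended the call, with adjusted p between 0.0552 and 0.0773. Median centring, quantile normalization and no filter on low values also ended the calls of Mrpl52 (adjusted p of 0.0551, 0.0502 and 0.0568) and Mrpl28 (0.0543, 0.0811 and 0.0507).

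Mrpl45 lies at the exit of the large subunit's protein tunnel and helps to hold the ribosome to the inner membrane (ENSMUSG00000018882, chromosome 11, 97315716 to 97329920). Its values were 10.23, 10.22, 10.28 and 10.32 in the vehicle libraries and 10.58, 10.6, 10.44 and 10.46 in the SLIT2 libraries. The groups did not overlap, and here the SLIT2 libraries of replicates 1 and 2 were the highest. The log2 difference was 0.26 (SE 0.053, limma adjusted p = 0.0154, and 0.0121 with the replicate block), a 1.2-fold rise. The sets gave 0.365 (replicates 1 and 2) and 0.15 (replicates 3 and 4), and the difference between these effects was not called (limma adjusted p = 0.0581). The adjusted p stayed between 0.021 and 0.0484 when any 1 of the 8 libraries was left out. With duplicates averaged and a block on the set, Mrpl45 and Mrpl28 did not pass (limma adjusted p = 0.142 and 0.0844) and Mrpl52 did (0.0356).

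**Figure D1:**
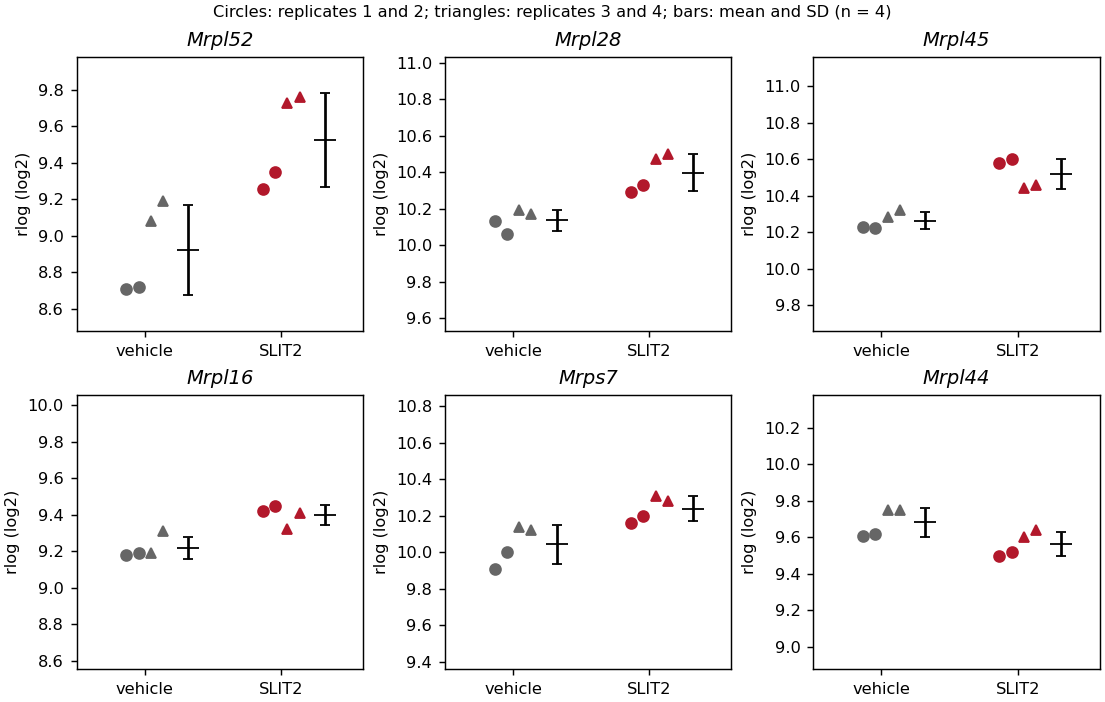
Values of 6 members in each library, on an rlog (log2) axis that spans the same width in every panel; circles are replicates 1 and 2, triangles replicates 3 and 4, and black bars the mean and SD of 4 libraries. Mrpl52, Mrpl28, Mrpl45, Mrpl16 and Mrps7 have all SLIT2 libraries above all vehicle libraries, while Mrpl44 has lower SLIT2 values that overlap with vehicle.

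Genes beside the called members were looked at after these values were seen. Tmem8, which ends 246 bases upstream of Mrpl28 on the same strand, stood at 11.17, 11.17, 11 and 11.05 in vehicle and at 12.1, 12.17, 12.26 and 12.28 in SLIT2 libraries. It rose by 1.105 (SE 0.0601, limma adjusted p = 5.11e-05), while Mrpl28 rose by 0.26. Slc7a7, an amino acid transporter gene 9129 bases upstream of Mrpl52 on the opposite strand, rose by 0.69 (limma adjusted p = 0.0307). Mmp14, a membrane-bound matrix metalloproteinase gene that starts 1856 bases downstream of Mrpl52 on the same strand, had a difference of 1.22 that did not pass (adjusted p = 0.324, and 0.000677 with the replicate block). A tested neighbour within 20 kb that passed as higher was found for 2 of the 3 called members. The same held for 6 of the 72 other tested members with coordinates (8.33%). A neighbour that passed as lower was found for 0 of the 3 and for 8 of the 72. These counts were not compared by a test, and no such count was made over all genes. No tested gene lay within 20 kb of Mrpl45. The part of the neighbours in the members' values was not tested.

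Among the other large-subunit members, 36 of 44 had a positive difference. Mrpl16, which sits close to the catalytic centre, had values of 9.18, 9.19, 9.19 and 9.31 in vehicle and 9.42, 9.45, 9.32 and 9.41 in SLIT2 libraries. These groups did not overlap, the gap being 0.01, and the difference of 0.18 (SE 0.054) did not pass (limma adjusted p = 0.0629, and 0.0265 with the replicate block). Mrpl49, with no bacterial counterpart, stood at 9.43, 9.53, 9.51 and 9.38 in vehicle and at 9.58, 9.61, 9.64 and 9.58 in SLIT2 libraries. Its difference of 0.14 had an adjusted p of 0.12 by limma and 0.0363 with the block. Mrpl57 (7.09 to 7.23 in vehicle and 7.24 to 7.38 in SLIT2) also had no overlap, with a difference of 0.13 and a limma adjusted p of 0.262.

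The lowest differences in the large subunit were those of Mrpl1, Mrpl44 and Mrpl17, and none passed. Mrpl1 forms the mobile stalk beside the exit site for transfer RNA. It had values of 9.47, 9.49, 9.56 and 9.52 in vehicle and 9.23, 9.41, 9.38 and 9.5 in SLIT2 libraries, a difference of -0.13 (limma adjusted p = 0.252). Mrpl44, which has a ribonuclease III fold, stood at 9.61, 9.62, 9.75 and 9.75 in vehicle and at 9.5, 9.52, 9.6 and 9.64 in SLIT2 libraries. Within each replicate set the SLIT2 libraries of Mrpl44 were the lower ones, while the groups as wholes overlapped. Its difference was -0.12 (limma adjusted p = 0.253, and 0.0451 with the replicate block), and it was the only member called lower under the block. With duplicates averaged and a block on the set, the call of Mrpl44 was lost (limma adjusted p = 0.221). Mrpl17, a homologue of a bacterial protein, also differed by -0.12 (limma adjusted p = 0.404). Mrpl12, the stalk protein that recruits translation factors, differed by 0.0375 (limma adjusted p = 0.887). Mrpl24 and Mrpl18 differed by 0.0325 and 0.13, and Mrpl51 by 0.085.

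In the small subunit, Mrps7, Mrps24 and Mrps16 had the smallest p. Mrps7, a protein of the head of the subunit (ENSMUSG00000046756, chromosome 11, 115603925 to 115608036), had values of 9.91, 10, 10.14 and 10.12 in vehicle and 10.16, 10.2, 10.31 and 10.28 in SLIT2 libraries. The groups did not overlap, by a gap of 0.02, and the difference of 0.195 (SE 0.066) had a limma adjusted p of 0.0943 and of 0.00654 with the replicate block. Mrps7 shares 127 exonic bases with Gga3 and 119 with Mif4gd, both on the opposite strand, and these genes rose by 0.32 and 0.56 (limma adjusted p = 0.00957 and 0.000123). No source used here states the strand setting of the counting, and reads of these overlaps cannot be assigned with certainty. Mrps24 (9.2 to 9.48 in vehicle and 9.45 to 9.6 in SLIT2) differed by 0.18 (limma adjusted p = 0.173, and 0.0299 with the block). Mrps16, whose loss causes a human disorder of oxidative phosphorylation, differed by 0.235 at a low level of 5.87 to 6.4 (limma adjusted p = 0.179).

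The remaining small-subunit members named by rule did not pass either. Mrps12, a protein of the decoding centre, differed by 0.19 (SE 0.12, limma adjusted p = 0.377), with values of 8.64 to 9.05 in vehicle and 8.8 to 9.18 in SLIT2 libraries. Mrps21 differed by 0.15 and Mrps11 by 0.10. Mrps15, Mrps17 and Mrps28 differed by 0.0725, 0.04 and -0.0325. The lowest differences were those of Mrps35 (-0.10), Mrps27, a pentatricopeptide-repeat protein (-0.05), and Mrps5 (-0.04), with limma adjusted p of 0.656, 0.695 and 0.789. Of the members whose symbols do not match their place, Mrps18a differed by 0.035, Mrps30 by 0.0925 and Mrps36 by 0.0825, none of which passed.

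**Figure D2:**
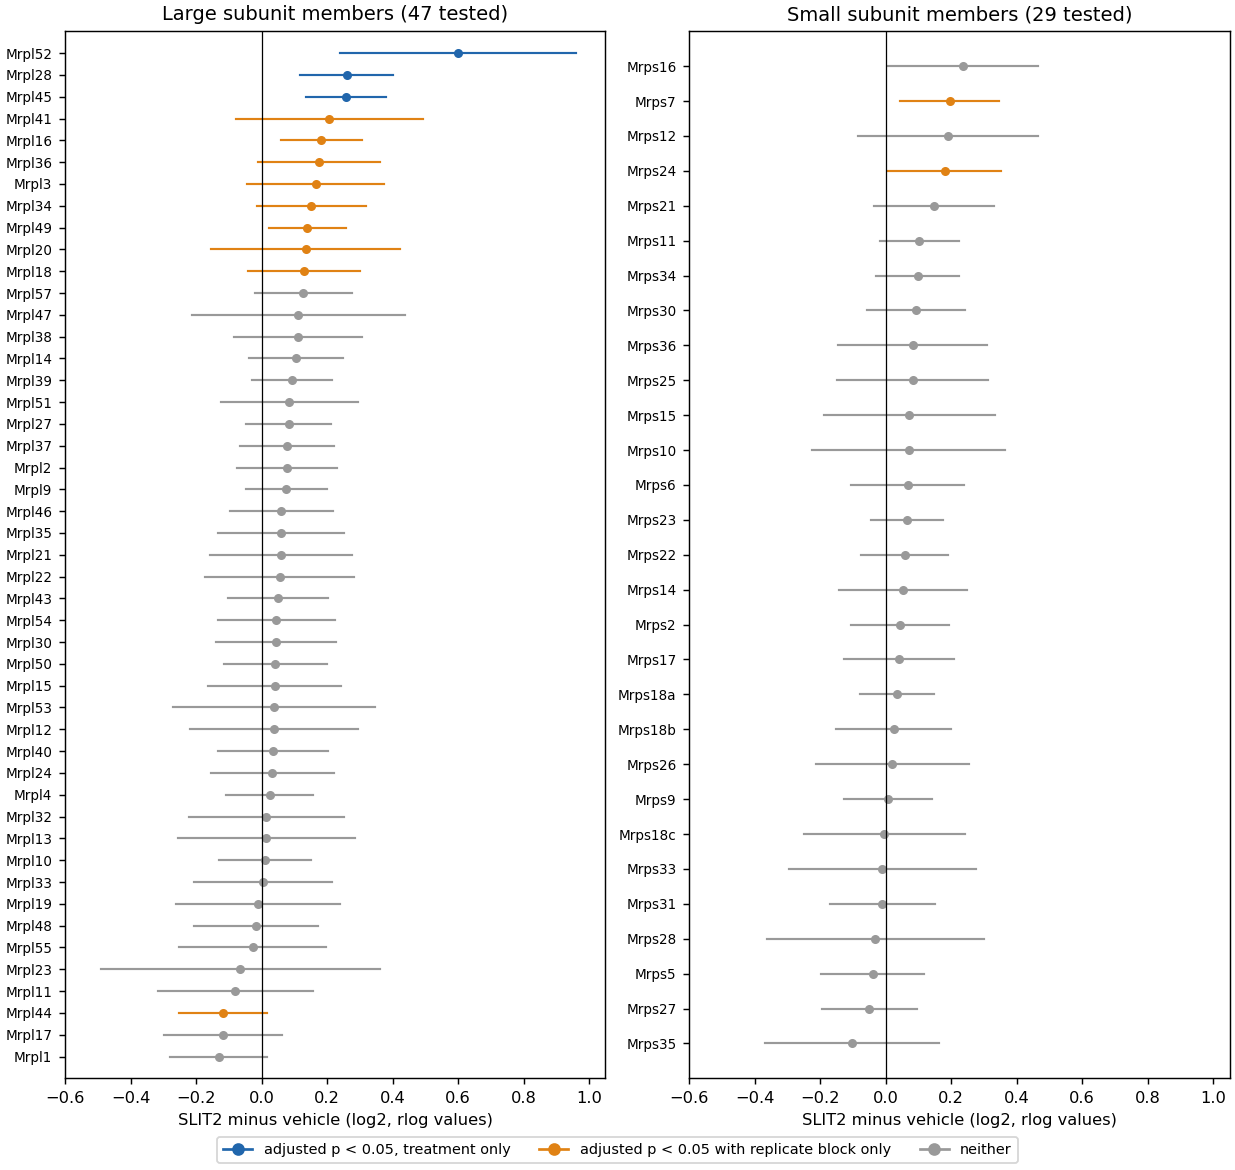
SLIT2 minus vehicle difference (log2, rlog values) of each tested member with its 95% confidence interval from limma, for 47 large-subunit members (left) and 29 small-subunit members (right); blue members pass without a block, orange ones only with the replicate block. Most points lie a little to the right of 0, and only Mrpl52 exceeds 0.3.

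As a set the members were shifted slightly upward and spread little. The median difference was 0.06 in the large subunit (range -0.13 to 0.60) and 0.0575 in the small subunit (range -0.10 to 0.235), against 0.0025 over all genes tested. Single libraries moved these medians by over 1.5 times. The large-subunit median was 0.0225 to 0.0283 without vehicle replicate 1 or 2 or SLIT2 replicate 3 or 4, and 0.0975 without vehicle replicate 4. The small-subunit median was 0.0192 to 0.0283 without vehicle replicate 1 or 2 or SLIT2 replicate 3 or 4, and 0.0883 without SLIT2 replicate 1. With all 8 libraries, the medians correspond to 4.25% and 4.07%. A positive difference was seen for 39 of 47 large-subunit members (83%), 22 of 29 small-subunit members (75.9%) and 50.6% of all genes tested. An absolute difference of at least 0.25 was reached by 3 of 76 members (3.95%) and by 22.4% of all genes tested. The SD of the differences between members was 0.10, against 0.32 between all genes tested. Non-overlapping groups with SLIT2 higher were found for 7 members (Mrpl45, Mrpl28, Mrpl52, Mrpl16, Mrpl49, Mrpl57 and Mrps7), 9.21% of those tested, against 10.6% of all genes. None had SLIT2 lower without overlap, against 9.99% of all genes.

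Members with and without a bacterial counterpart had like medians. The 46 members with bacterial homologues and the 29 tested members without one both had a median of 0.0575, with 1 and 2 members raised. Among members without a bacterial homologue, the 19 tested in the structural large subunit had a median of 0.0775, with 17 positive. The 10 in the structural small subunit had a median of 0.0225, with 6 positive. The difference between these groups was not tested.

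For 61 of 76 members the replicate sets lay further apart than the treatments. The value in replicates 3 and 4 exceeded that in replicates 1 and 2 for 68 of 76 members, by a median of 0.17 over the 76, against -0.01 over all genes tested. For 42 members all 4 libraries of replicates 3 and 4 lay above all 4 of replicates 1 and 2, and Mrpl3 was the only member with the reverse. Of all genes tested, 17.2% had replicates 3 and 4 above without overlap and 19.1% had them below, and of the 76 members 55.3% were above. The median deviation of large-subunit members from their own means was -0.13, -0.12, 0.0488 and 0.0675 in vehicle replicates 1 to 4. It was -0.05, -0.0487, 0.11 and 0.12 in the SLIT2 replicates. Each SLIT2 library thus lay above its own vehicle counterpart, while the difference between group means of 0.0663 was smaller than the SD within either group (0.105 and 0.0957). In the small subunit, too, each SLIT2 library lay above its vehicle counterpart, with -0.12, -0.13, 0.0612 and 0.0525 in vehicle and -0.0687, -0.0463, 0.13 and 0.12 in SLIT2 libraries.

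**Figure D3:**
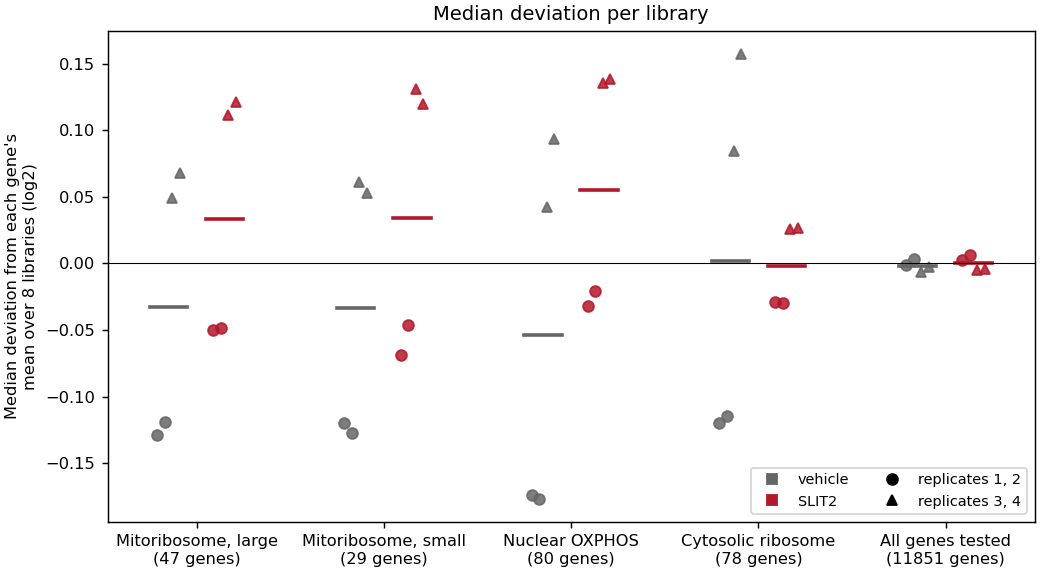
Median deviation of each gene list from each gene's mean over the 8 libraries (log2), one point per library, with circles for replicates 1 and 2, triangles for replicates 3 and 4 and a bar for the group mean. In both subunits the triangles lie above 0 and the circles below it, and within each set SLIT2 (red) lies above vehicle (grey), while all genes tested stay near 0.

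Taking the replicate number as a block removes these shifts from the error. With the block, 11 of 47 large-subunit members passed as higher and 1, Mrpl44, as lower, and 2 of 29 small-subunit members, Mrps7 and Mrps24, passed as higher. Of all genes tested, 16.6% passed as higher and 16.4% as lower with the block. The share of large-subunit members higher (23.4%) was above that background, and the share of small-subunit members (6.9%) below it. Neither difference from the background was tested. The 8 large-subunit members called only with the block were Mrpl16, Mrpl49, Mrpl36, Mrpl34, Mrpl3, Mrpl18, Mrpl41 and Mrpl20, with differences of 0.13 to 0.21. With duplicates averaged and a block on the set, which leaves fewer samples, only Mrpl52 passed, and no member passed as lower, against 3.15% of all genes higher and 2.66% lower. In that fit the limma adjusted p was 0.179 for Mrpl16, 0.187 for Mrpl49, 0.191 for Mrpl18, 0.111 for Mrps7 and 0.164 for Mrps24. Median differences were 0.06 and 0.06 in the large subunit, and 0.04 and 0.06 in the small subunit, in replicates 1 and 2 and in replicates 3 and 4. A limma test of the difference in effect between the sets called 0 of 76 members and 4.4% of all genes, with 4 members at an unadjusted p under 0.05 (Mrpl45, Mrps21, Mrps2 and Mrpl39).

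**Figure D4:**
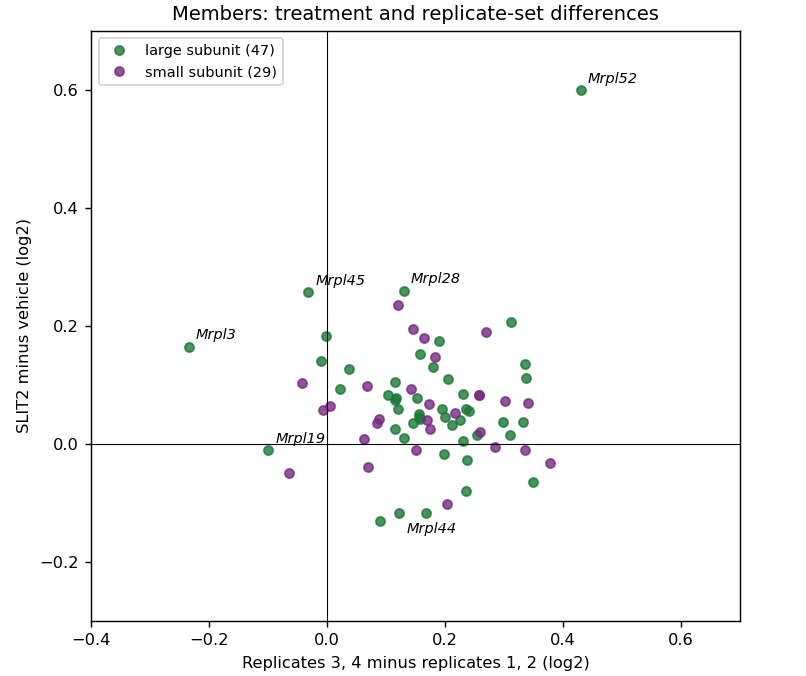
Difference between replicate sets (horizontal, replicates 3 and 4 minus 1 and 2, log2) against the SLIT2 minus vehicle difference (vertical, log2) for the 76 tested members, in green for the large and purple for the small subunit. Points spread further along the horizontal than the vertical axis, Mrpl52 is high on both, and Mrpl3 has the lowest set difference, -0.235.

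The members followed each other across the 8 libraries, which share the set shift. The median Pearson correlation of a member with the mean of the other members was 0.874, and 53 members exceeded 0.8. Mrpl3, Mrps27 and Mrpl19 had negative correlations (-0.545, -0.498 and -0.389), and Mrpl45 had 0.225. The tested genes outside the list with the most similar profile over the 8 libraries were Rpl36al (r = 0.995), Ube2m and Dgat1 (both 0.993), Sec62 and Uqcrb (both 0.992). The limma adjusted p of these 5 genes for SLIT2 lay between 0.505 and 0.691.

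Other parts of the mitochondrial translation apparatus showed few changes. Of 6 further subunits with other symbols, none passed. Dap3, the GTP-binding protein of the small subunit, had a difference of 0.18 (limma adjusted p = 0.187, and 0.0106 with the block), and Ptcd3 one of -0.17. Of 26 assembly factors, Nsun4, a methyltransferase of the small-subunit ribosomal RNA, rose by 0.29 (SE 0.068, limma adjusted p = 0.0277), with 8.18, 8.15, 8.31 and 8.24 in vehicle and 8.47, 8.4, 8.6 and 8.56 in SLIT2 libraries. No other assembly factor passed, and 4 were higher and 1 lower with the block. Of 18 translation factors none passed with or without the block, 2810006K23Rik having the smallest p (difference -0.165, limma adjusted p = 0.172), and the elongation factor gene Tufm differed by 0.0375. Of 20 mitochondrial transfer RNA synthetases none passed, Tars2 having the smallest p (difference 0.19, limma adjusted p = 0.118, and 0.0337 with the block, the 1 gene of the list that passed there).

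Of 19 tested genes for transcription and RNA processing in mitochondria, 1 rose. Hsd17b10, a subunit of the mitochondrial RNase P, rose by 0.32 (limma adjusted p = 0.00637), and with the block 4 genes of the list were higher and 4 lower. Polrmt, the mitochondrial RNA polymerase, had a difference of 0.415 (SE 0.20, limma adjusted p = 0.226, and 0.00426 with the block). Tfam, which packages the mitochondrial genome and starts its transcription, differed by -0.005 (limma adjusted p = 0.981). Among 10 tested regulators of mitochondrial biogenesis, Max rose by 0.20 (limma adjusted p = 0.013). Myc, a transcription factor known to drive ribosome biogenesis, fell by 0.865 (SE 0.075, limma adjusted p = 0.00026). Myc values were 9.18, 9.19, 9.2 and 9.19 in vehicle and 8.27, 8.19, 8.32 and 8.52 in SLIT2 libraries, with no overlap.

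Transcripts of the mitochondrial genome itself did not pass the test. Of its 13 messenger RNAs, 10 had positive differences, with a median of 0.095, and mt-Nd4l had the smallest p (difference 0.175, limma adjusted p = 0.0767). With the block mt-Nd4l was higher and mt-Nd6 lower. Both mitochondrial ribosomal RNAs had negative differences, mt-Rnr1 of -0.30 (limma adjusted p = 0.486, and 0.0196 with the block) and mt-Rnr2 of -0.15 (0.148, and 0.0208 with the block). The libraries were made with a kit for messenger RNA.

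The products of the nuclear genes of oxidative phosphorylation assemble with the subunits made by the mitochondrial ribosome. With all 8 libraries, these genes had a higher median than the members. Of 80 tested, 4 rose (Atp5o by 0.20, Atp5f1 by 0.36, Ndufv3 by 0.27 and Ndufs8 by 0.33) and none fell, with a median of 0.105. Replicates 1 and 2 alone gave medians of 0.1425 for the 80 genes and 0.0575 for the members. Replicates 3 and 4 alone gave 0.06 for both lists, so the higher median was not seen there. The limma test of the difference in effect between the sets called 2 of the 80. With the block, 31 of the 80 were higher. Of all genes tested, 6.76% passed as higher without the block and 16.6% with it. The 78 genes of the cytosolic ribosome had a median of -0.0125, and none passed without the block. Rpl12 had the smallest p (difference -0.25, limma adjusted p = 0.185) and was the 1 gene of that list called with the block, as lower (0.0339). Taken by set, the cytosolic genes had medians of 0.075 (replicates 1 and 2) and -0.095 (replicates 3 and 4), and the limma test of the difference in effect between the sets called 23 of the 78, against 4.4% of all genes. The difference between either list and the members was not tested. Both lists shared the set shift, with medians of 0.21 and 0.14 for replicates 3 and 4 minus replicates 1 and 2.

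Markers of other cell types are given beside these results as summed log2 levels. Neutrophil markers ranged from 11.22 to 11.45 in vehicle and from 11.85 to 12.22 in SLIT2 libraries. This sum is nearly all Csf3r, the G-CSF receptor gene, which rose by 0.68 (limma adjusted p = 0.00215) from 11.19 to 11.43 in vehicle to 11.83 to 12.21 in SLIT2 libraries. S100a8, the other tested neutrophil marker of 7, differed by -0.155 (limma adjusted p = 0.413). S100a9, below the floor, had means of 3.617 in vehicle and 3.355 in SLIT2 libraries, Elane and Mpo were at -2.14 in every library, and Ly6g and Retnlg were listed at 0. Lymphoid markers ranged from 9.88 to 10.25 and from 9.41 to 9.78, Cd4 falling by 0.60 with 1 of 7 tested and Ncr1 listed at 0. Erythroid and megakaryocytic markers ranged from 9.04 to 10.53 and from 9.95 to 12.3, with 2 of 7 tested and Gp9 listed at 0. That sum is nearly all Pf4, which stood at 8.98 to 10.5 in vehicle and at 9.91 to 12.28 in SLIT2 libraries. Pf4 had a difference of 1.3575 (limma adjusted p = 0.212, and 0.000715 with the block). Ppbp, a platelet chemokine gene, had a difference of 1.145 (limma adjusted p = 0.0908, and 0.0134 with the block). Stromal and endothelial markers ranged from 10.33 to 10.6 and from 10.51 to 10.84, with 6 of 8 tested and none listed at 0. Col3a1, a collagen gene, rose by 0.665 (SE 0.18, limma adjusted p = 0.0422). The other tested markers of this list did not pass. Kdr differed by 0.3925 (limma adjusted p = 0.0825, and 0.0161 with the block), Col1a1 by 0.16, Col1a2 by 0.15, Dcn by 0.0175 and Pecam1 by -0.21. Dendritic markers ranged from 4.98 to 5.41 and from 4.92 to 5.17 (1 of 6 tested, none listed at 0), and Xcr1 differed by -0.16 (limma adjusted p = 0.62). Mast cell and basophil markers ranged from 5.16 to 5.64 and from 4.73 to 5.13 (1 of 5 tested, Cpa3 and Fcer1a listed at 0), and Kit differed by -0.505 (limma adjusted p = 0.0869, and 0.0382 with the block). Their part in the members' values was not tested.

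Levels were compared between members only per length, as the mean rlog minus the log2 of the median annotated transcript length in kb. On this scale the large subunit had a median of 9.58 (quartiles 8.82 and 9.99) and the small subunit of 9.19 (8.32 and 10.27). Mrps21 (11.86) and Mrpl20 (11.35) were highest. Mrpl42 (2.19), Mrps16 (4.85), Mrpl23 (4.99) and Mrpl57 (5.71) were lowest. Mrpl42 was at 1.48 to 1.51 in 7 libraries and at 2.25 in vehicle replicate 2.

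Some members share sequence with other genes. Of windows of 101 bases, the read length, 48.9% of those in Mrpl23 transcripts also occur in Mrpl23-ps1, a processed pseudogene that the table lists at 9.34 to 9.81, while Mrpl23 itself stood at 4.14 to 4.92. Mrpl23-ps1 had a SLIT2 minus vehicle difference of 0. No source used here says how reads were divided between them, and the value of Mrpl23 is uncertain. All 595 windows of Mrpl53 are shared with Gm42688, a gene model on the same strand. In all, 17 of 76 members shared any window with another gene, and 7 shared over 10%. For Mrpl42 the share was 6.87%.

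The members lie on 17 chromosomes, and many have their start close to that of a gene on the other strand. A protein-coding partner on the opposite strand, head to head with starts within 1000 bases, was found for 33 of 76 members with coordinates (43.4%). The share was 17.5% of 10969 tested protein-coding genes. In some of these pairs the genes overlap at their starts, as Mrps7 and Gga3 do. The share was 51.1% in the large and 31% in the small subunit, 39.2% in nuclear oxidative phosphorylation genes and 20.5% in cytosolic ribosomal protein genes. In 28 such pairs both genes were tested and the partner was no member. Of these partners 1 passed, Gga3 beside Mrps7, and 15 of the 28 had a positive difference, against 23 of the 28 members. The partners' median difference was 0.0262 and the members' 0.0688.

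Promoters of 68 of the 77 members were matched in the RefSeq table and searched on both strands over 250 bases before to 50 after the start. The motif of NRF1, a regulator of nuclear genes for mitochondrial proteins (GCGCNTGCG), was found in 26.5% of members' promoters, 15% of those of tested genes and 6.59% of all promoters. The ETS motif (CCGGAAG), bound by factors such as GABP, was found in 35.3%, 19.7% and 9.12%. The YY1 motif (AAGATGGC) was found in 17.6%, 5.17% and 2.88%. The remaining motifs were no more frequent than in promoters of tested genes, apart from CCAAT by a small margin (39.7% against 39.1%, and 37.9% of all promoters). GGGCGG stood at 50%, 65.4% and 35.9%, CACGTG at 7.35%, 10.7% and 7.24%, and TATAAA at 5.88%, 6.53% and 14.2%. A match is a description of the letters and does not show binding.

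**Figure D5:**
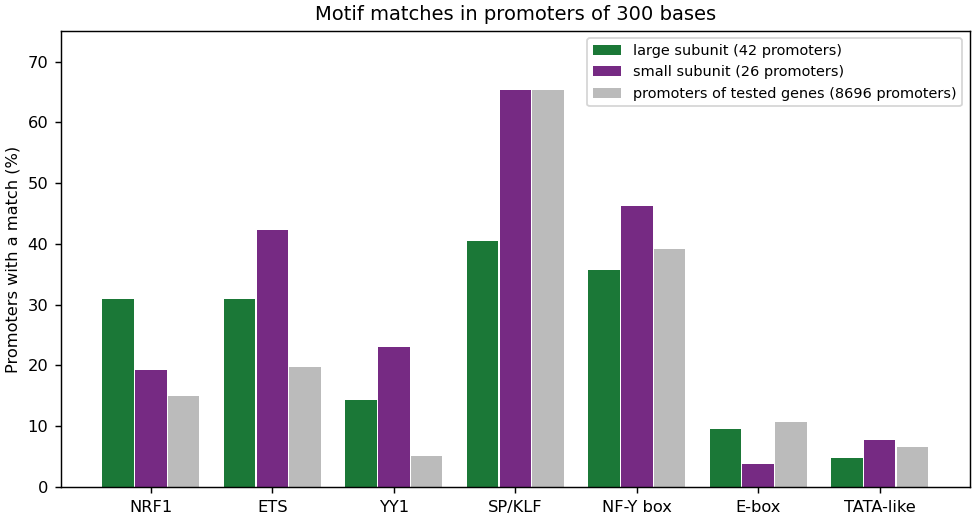
Share of promoters (300 bases each) with a match to 7 motifs, for 42 large-subunit members, 26 small-subunit members and 8696 tested genes. NRF1 matches are at 31% in the large and 19.2% in the small subunit, and ETS matches at 31% and 42.3%, against 15% and 19.7% of tested genes.

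The 3 raised members shared no exact match to the letters of the motifs searched. Near matches were not counted. The window of Mrpl45 shown above holds 3 NRF1 matches, starting at -119, -37 and 15 from the start site. That of Mrpl52 holds 2 ETS matches, at -47 and 2, and that of Mrpl28 holds CCAAT on both strands in an overlapping palindrome, at -33 and -30. Among the genes for these factors, Nrf1 differed by 0.0275 between SLIT2 and vehicle, Gabpa by 0.075 and Yy1 by 0.0575, and none passed (limma adjusted p = 0.801, 0.81 and 0.731).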

How the data were processed

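The authors deposited rlog values on a log2 scale, to 2 decimals, for 8 libraries. The submitters' processing notes name STAR, Salmon, DESeq2, Picard 2.23.8, SAMtools 1.7 and FastQC 0.11.9, and the builds mm10 and GRCm38. No source used here gives their roles, order or settings, or the strand setting. The rlog transform adjusts for library size and shrinks differences of low genes, which understates them. With no counts, depth and counting error are unknown. A single value filled all libraries for 20992 genes, and it was 0 for 20347.

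Genes with a mean rlog of 4 or more over the libraries were fitted with limma 3.58.1 in R 4.3.3 (treatment only, eBayes with a mean-variance trend, two-sided). The steps were tested on simulated data. Numbers were taken as pairs because, across genes, same-numbered libraries of the 2 groups departed alike from the group means (correlations 0.637, 0.671, 0.753 and 0.587). Over the 76 tested members the correlations were 0.519, 0.374, 0.575 and 0.296. The shift between the replicate sets alone can give such values. Libraries of unlike number were not compared, so the correlations do not show pairing within a set. The labels do not say what a number marks. Alternatives were blocks on number or set, other filters, variance priors, scalings and weights, averaged duplicates, single sets, subunits by structure, and leaving out each library. Overlaps and positions came from GENCODE M21, to which 41157 identifiers and 76 members matched (not Mrpl33). Promoters came from the RefSeq table for GRCm38.p6, and figures were drawn with matplotlib 3.10.9.

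Members, lists and tests were chosen with earlier results of these data known. Members named were those that passed, the 5 of each subunit with the smallest p, the 3 highest and lowest by mean rlog and by difference, those not tested, and Mrpl12, Mrps12, Mrpl45, Mrps18a, Mrps30 and Mrps36. From each list up to 3 genes that passed, or the one with the smallest p, were named, with Dap3, Polrmt, Tfam, Tufm and Myc. Kdr, Col1a1, Col1a2, Dcn, Pecam1, Pf4 and Cd14 were added once their values were known. Ndufs8 (the fourth to pass in its list), Ptcd3, mt-Nd6, S100a8, S100a9, Elane, Mpo, Itgam, mt-Rnr1, Xist, Ddx3y, the genes beside the members, and Nrf1, Gabpa and Yy1 were named after their values were seen, as were members called with the block or standing apart in a count.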

Additional observations from a re-analysis of the deposited data

Results flagged for a closer look

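In 3 of the 64 groups of 4 libraries checked, 1 library stood far from the other libraries of its group, and chance alone flags about 1 in 20. Mrpl16 stood at 9.31 in vehicle replicate 4 against 9.18 to 9.19 in the other vehicle libraries. Mrpl23, whose transcripts share sequence with a pseudogene, stood at 4.92 in SLIT2 replicate 4 against 4.24 to 4.32. Mrpl42 stood at 2.25 in vehicle replicate 2 against 1.48 to 1.51, a level below the floor of the test.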

How the results depend on the processing

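The count of large-subunit members higher with SLIT2, 3 in the report, was 11 with the replicate block and with the set as a block, 9 in replicates 1 and 2 alone and 4 in replicates 3 and 4 alone. It was 1 without a filter on low values, with median centring, with quantile normalization and with averaged duplicates, and 1 to 3 when 1 library was left out (1 without vehicle replicate 1 or 2 or SLIT2 replicate 3 or 4). The count lower was 1 with the replicate block and with the set as a block. Small-subunit members higher, 0 in the report, numbered 2 with the replicate block, 3 with the set as a block, 3 in replicates 1 and 2 alone and 2 in replicates 3 and 4 alone. The causes were not tested. The median differences stayed positive under all alternatives run. Leaving out 1 library, which unbalances the replicate sets, moved them between 0.0225 and 0.0975 in the large subunit (0.0225 without vehicle replicate 1 and 0.0975 without vehicle replicate 4). In the small subunit they moved between 0.0192 without SLIT2 replicate 4 and 0.0883 without SLIT2 replicate 1.

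Over 29 named members and 579 alternatives, 527 kept direction and call, 19 lost a call, 19 gained one and 14 changed sign. The changes of sign were all near 0: with 1 library left out, Mrpl12 ranged from -0.0208 to 0.106, Mrpl23 from -0.228 to 0.0033, Mrpl24 from -0.01 to 0.0767 and Mrps28 from -0.106 to 0.0508. In replicates 3 and 4 alone Mrps17 was -0.005, Mrps28 0.02 and Mrps5 0.045. Depth is unknown, and the 2-decimal values and 4 libraries a group limit what small differences can show.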
